A study of Mus musculus with 9 samples.

Results

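Glutathione transferases join glutathione to electrophilic molecules. The 10 genes described here are Gsta1, Gsta2, Gsta3, Gsta4, Gstm1, Gstm2, Gstp1, Gsto1, Mgst1 and Mgst3. They were taken by gene symbol from a table of 29756 entries, and all 10 had an entry. Gsta3 was below 1 FPKM (fragment counts normalised for transcript length and for library total) in all 9 libraries. Gsta1 and Gsta2 were below 1 FPKM in the 3 control libraries and above it in the other 6. The other 7 genes were above 1 FPKM in all 9 libraries.

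The libraries came from HT22, an immortalised line of mouse hippocampal neuronal cells. They form an experimental, an intervention and a control group of 3 libraries each, and the study concerns hemin, which is oxidised heme, and a micelle named PPP8. No label ties either agent to a group, so the groups are called as labelled. Separate cultures are not recorded for the replicates, and p-values therefore cover spread among these libraries that could be technical.

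Cytosolic transferases fall into classes that include alpha (Gsta genes), mu (Gstm), pi (Gstp) and omega (Gsto), and a membrane-bound family, MAPEG, holds Mgst1 and Mgst3. Their conjugates leave the cell through ATP-driven pumps and are trimmed to mercapturates. In many tissues several of these genes are targets of NRF2, a transcription factor that binds antioxidant response elements with small MAF partners, while BACH1 competes at such sites and KEAP1 holds NRF2 back.

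Several of these genes have near-identical copies, which limits how far a value belongs to 1 gene. In the GENCODE M21 annotation of mm10, Gsta4 (chr9:78182774-78209349, plus strand), Gsta1 (chr9:78230656-78242684, plus strand) and Gsta2 (chr9:78331018-78355788, minus strand) lie together on chromosome 9 with the predicted copies Gm3776 and Gm10639. The coding sequences of Gsta1 and Gsta2 were identical at 653 of 666 aligned bases (98.0%), and those of Gsta1 and Gm3776 at 99.7%. The first 200 coding bases of Gsta1 and Gsta2 are shown because they differ at 1 base, in capitals.
Gsta1: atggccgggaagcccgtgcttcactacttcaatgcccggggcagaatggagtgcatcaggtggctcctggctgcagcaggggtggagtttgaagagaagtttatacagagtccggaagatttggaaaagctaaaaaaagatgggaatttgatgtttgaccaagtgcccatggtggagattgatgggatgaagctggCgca
Gsta2: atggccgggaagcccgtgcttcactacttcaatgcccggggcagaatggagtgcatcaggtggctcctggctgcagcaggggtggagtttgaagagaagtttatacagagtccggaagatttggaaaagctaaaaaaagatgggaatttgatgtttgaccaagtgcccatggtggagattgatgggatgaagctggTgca
Of the 50-nt windows of the Gsta1 transcript, 89.7% also occurred in another gene's transcript, and the share was 64.2% for Gsta2. The share was 0.0% for Gsta3, Gsta4, Gsto1, Mgst1 and Mgst3, 23.1% for Gstm1 and 9.4% for Gstm2. Levels of Gsta1 and Gsta2 are therefore uncertain as single genes.

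Gstp1 (chr19:4035407-4037985, minus strand) lies beside Gstp2 (chr19:4040285-4046023, minus strand). Their coding sequences were identical at 98.1% of 630 bases. Of the Gstp1 windows, 62.3% also occurred in Gstp2 and 45.6% in the pseudogene Gstp-ps, so the level of Gstp1 is uncertain as a single gene as well. Coding bases 301 to 500 of each are shown, with the 5 differing bases in capitals, because the last 300 bases are shared without a difference.
Gstp1: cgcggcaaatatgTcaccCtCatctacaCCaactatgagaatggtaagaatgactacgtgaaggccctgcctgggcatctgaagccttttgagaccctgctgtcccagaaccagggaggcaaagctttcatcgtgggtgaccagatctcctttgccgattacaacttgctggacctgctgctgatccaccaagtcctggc
Gstp2: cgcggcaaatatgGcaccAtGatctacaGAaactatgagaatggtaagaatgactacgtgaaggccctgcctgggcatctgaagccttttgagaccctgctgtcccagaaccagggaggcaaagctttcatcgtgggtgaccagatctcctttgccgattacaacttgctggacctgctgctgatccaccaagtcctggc
The remaining members were Gsta3 (chr1:21240589-21265661), Mgst3 (chr1:167371966-167393841), Gstm2 (chr3:107981702-107986453), Gstm1 (chr3:108012255-108017973), Mgst1 (chr6:138140316-138156755) and Gsto1 (chr19:47854970-47864790). An antisense gene overlaps Gsta3, and Cfap43 overlaps Gsto1 on the other strand. Whether the counting used strand is not given in the sources used here, so both values are uncertain in that respect.

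Promoters of the members were read from RefSeq on GRCm38.p6, where 9 of the 10 had 1 or more windows (11 windows in all). Gsta4 had none, so its promoter was not searched. The 250 bases before each RefSeq start site were searched on both strands, and sequence farther upstream was not. The letters TGANTCAGC, a form of the sequence bound by small MAF partners, occurred in 1 of the 9 members, Gstp1, and in 1.02% of 32851 windows of that length. The Gstp1 match, TGAGTCAGC, lies 74 to 66 bases before the RefSeq start site and also holds TGAGTCA, an AP-1 sequence found in 4.46% of windows. In GENCODE M21 the gene begins at chr19:4037985, within the match, so the match is partly exonic in that annotation. The core TGACNNNGC of the antioxidant response element occurred in Gsta3 and Mgst1 and in 10.16% of windows. These matches are descriptions of letters. The Gstp1 promoter (chr19:4037971-4038162, minus strand) is shown from 250 to 59 bases before the RefSeq start site, with the match in capitals. The Gsta1 (chr9:78230419-78230668, plus strand) and Gsta2 (chr9:78347154-78347395, minus strand) promoters are shown with their longest shared stretch, 29 nt, in capitals. The Gsta2 window is printed from 250 to 9 bases before its RefSeq start site. It lies inside the Gsta2 gene as GENCODE M21 places it.
Gstp1 promoter: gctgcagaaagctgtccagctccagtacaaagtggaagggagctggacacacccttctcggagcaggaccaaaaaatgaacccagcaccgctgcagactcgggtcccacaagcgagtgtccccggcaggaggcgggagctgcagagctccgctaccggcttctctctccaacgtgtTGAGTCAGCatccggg
Gsta1 promoter: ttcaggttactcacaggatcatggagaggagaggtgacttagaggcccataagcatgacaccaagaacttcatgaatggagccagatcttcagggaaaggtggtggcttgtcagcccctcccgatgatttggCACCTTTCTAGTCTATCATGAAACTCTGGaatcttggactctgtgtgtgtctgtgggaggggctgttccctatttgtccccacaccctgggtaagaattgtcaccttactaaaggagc
Gsta2 promoter: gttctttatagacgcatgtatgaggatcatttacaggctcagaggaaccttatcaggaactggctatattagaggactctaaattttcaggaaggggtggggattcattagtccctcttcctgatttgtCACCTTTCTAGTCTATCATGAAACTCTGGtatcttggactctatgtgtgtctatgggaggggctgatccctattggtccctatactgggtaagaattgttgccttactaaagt

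Summed FPKM was 316912 to 339943 per library, and the read number behind each value is unknown. Of 10 neuron markers, 4 reached 1 FPKM in at least 3 libraries, and Rbfox3, Map2, Slc17a7, Grin1 and Nefl were below 1 FPKM in all 9. Summed over their list, neuron markers were 16.8 to 17.3 FPKM in the experimental group, 13.9 to 15.4 in the intervention group and 21.8 to 27.4 in controls. They did not move together: Tubb3 was at 8.32 to 8.46 FPKM in experimental libraries against 5.69 to 8.12 in controls. Syn1, Dlg4 and Eno2 were lower in experimental libraries than in controls. The 5 fibroblast markers all reached 1 FPKM and summed to 205 to 213, 205 to 222 and 577 to 708 FPKM in the same order. The hepatocyte marker Alb split the libraries: it was 0 FPKM in experimental libraries 1 and 2 and intervention library 1, and 6.05 to 9.17 FPKM in the other 6. Gsta2 was at 2.16, 1.47 and 1.09 FPKM in the 3 libraries without Alb. In the libraries with Alb, Gsta2 was at 2.07 FPKM in the experimental, 1.34 and 1.35 in the intervention and 0 in the 3 control libraries. Over the 5 hepatocyte markers the sums were 0 to 10.1, 1.67 to 16.1 and 13.3 to 13.6 FPKM. Of the 6 microglia and blood markers, 1 (Tmem119) reached 1 FPKM in at least 3 libraries. Their sums were 1.09 to 1.92, 1.66 to 2.94 and 10.6 to 12.1 FPKM. The 8 astrocyte markers summed to 29.1 to 30.8, 26.5 to 27.7 and 31.3 to 40.5 FPKM. They did not move together: Gja1 was at 7.76 to 7.91 FPKM in experimental libraries against 3.18 to 3.89 in controls, while Sox9 and Slc1a3 were lower than in controls. No oligodendrocyte or endothelium marker reached 1 FPKM in 3 libraries. The part of these markers in the differences below was not tested. In bulk RNA, fewer cells of a type and less RNA per cell cannot be told apart.

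**Figure D1:**
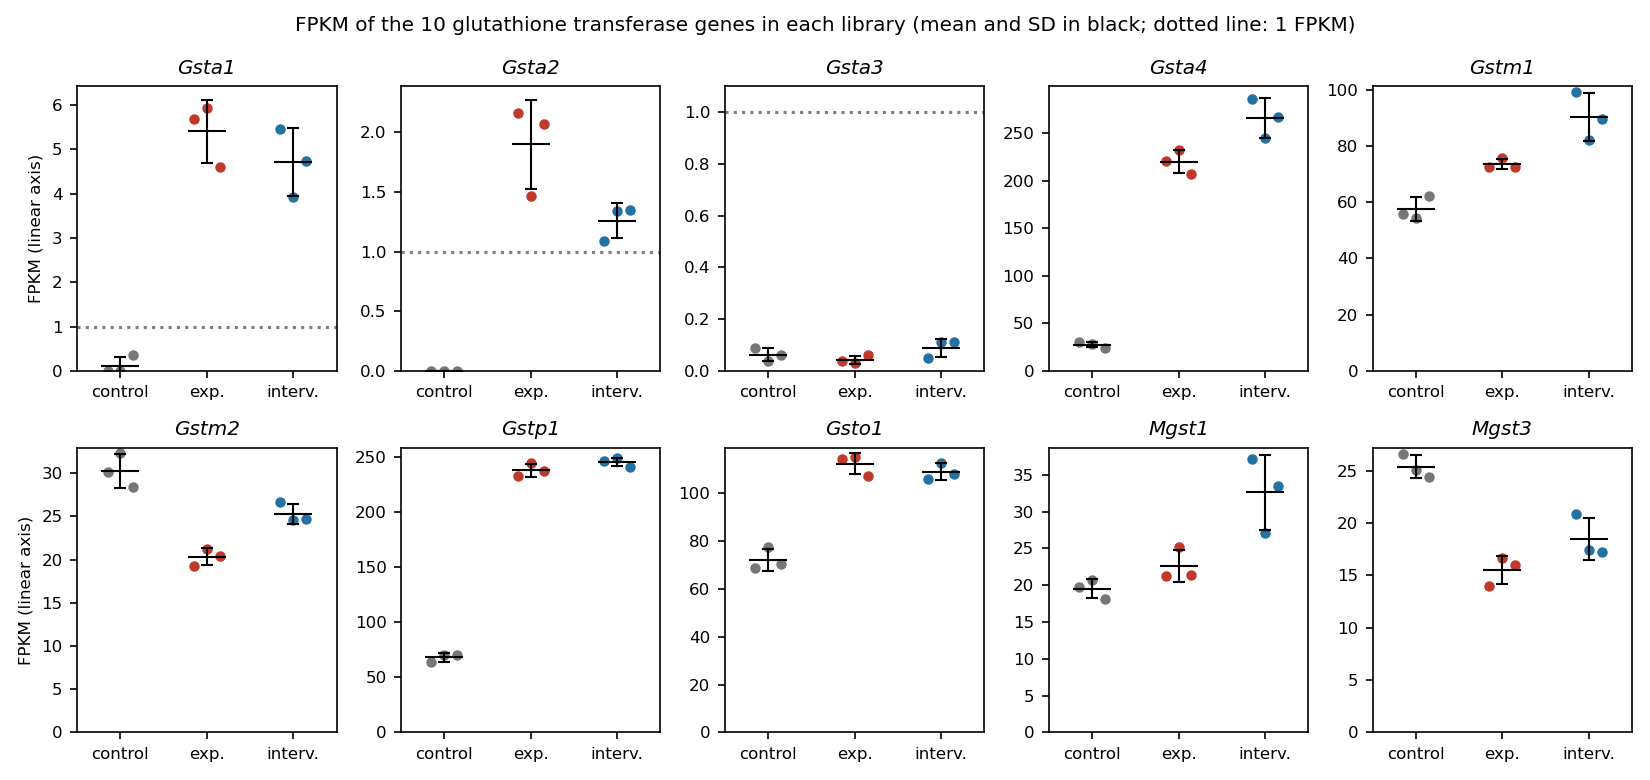
FPKM of each of the 10 genes (vertical axes, linear, from 0, on a scale of their own for each gene) in the 3 libraries of each group (horizontal axis), with the mean and SD of 3 libraries in black and a dotted line at 1 FPKM. Gsta4 sits at 24.41 to 29.96 FPKM in controls and at 207.53 FPKM or more in the other 6 libraries, while Gsta3 lies between 0.03 and 0.11 FPKM.

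Alpha class genes spanned the widest range of levels, from Gsta3 near 0 to Gsta4 at 286.13 FPKM in 1 intervention library. Gsta4, whose enzyme prefers the lipid peroxidation product hydroxynonenal, was at 29.96, 28.25 and 24.41 FPKM in the control libraries. It was at 220.44, 231.86 and 207.53 FPKM in the experimental libraries and at 286.13, 245.05 and 266.56 FPKM in the intervention libraries. The 3 groups did not overlap, with controls lowest and intervention highest. The experimental mean of 219.9 ± 12.2 FPKM (SD, n = 3) was 7.99 times the control mean of 27.5 ± 2.84, and the intervention mean of 265.9 ± 20.5 was 9.66 times it.

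Gsta1, an alpha class enzyme that also reduces lipid hydroperoxides, was listed at 0, 0 and 0.35 FPKM in controls. It was at 5.68, 5.94 and 4.60 FPKM in experimental libraries and at 5.46, 3.93 and 4.73 FPKM in intervention libraries. Every library of those 2 groups was above every control, and the 2 groups overlapped each other. Gsta2 was listed at 0 in all 3 controls, at 2.16, 1.47 and 2.07 FPKM in experimental and at 1.09, 1.34 and 1.35 FPKM in intervention libraries. No fold is given for Gsta1 or Gsta2, since most or all of their controls were at 0. Gsta3 ranged from 0.03 to 0.11 FPKM over the 9 libraries, was not tested, and its groups overlapped.

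The copies of Gsta1 followed the same order of groups. Gm3776 was at 0, 0 and 0.14 FPKM in controls, 3.55, 3.24 and 3.58 in experimental and 3.10, 3.31 and 2.80 in intervention libraries. Gm10639 was at 0 in the 3 controls, 0.52 to 1.19 FPKM in experimental and 0.65 to 0.71 FPKM in intervention libraries. Added into 1 entry with Gsta1 and Gsta2, these copies differed by 3.46 on the log2(FPKM + 1) scale between experimental and control. That entry passed the filter on low values through the groups where it is high and had to differ from controls, so the value is a description. Between intervention and experimental libraries it differed by -0.23 (limma adjusted p = 0.245).

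The mu class genes encode cytosolic transferases for epoxides and quinones. Relative to controls they went in opposite directions, while both were higher in intervention than in experimental libraries. Gstm1 was at 55.63, 54.53 and 62.37 FPKM in controls, 72.41, 75.70 and 72.61 in experimental and 99.02, 82.02 and 89.57 in intervention libraries. Gstm2 was at 30.09, 32.32 and 28.44 FPKM in controls, 19.30, 21.27 and 20.43 in experimental and 26.65, 24.54 and 24.66 in intervention libraries. The groups of neither gene overlapped. For Gstm1 the controls were lowest and the intervention libraries highest, while for Gstm2 the controls were highest and the intervention libraries lay between. The Gstm1 means were 57.5 ± 4.24, 73.6 ± 1.84 and 90.2 ± 8.52 FPKM in control, experimental and intervention libraries, and the Gstm2 means were 30.3 ± 1.95, 20.3 ± 0.99 and 25.3 ± 1.19 (SD, n = 3 each). Their coding sequences share 85.9% of 654 bases.

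Gstp1, the single pi class member here, also binds and restrains the stress kinase JNK. It was at 63.56, 70.64 and 70.71 FPKM in controls, 232.74, 244.45 and 237.71 in experimental and 246.65, 249.13 and 241.52 in intervention libraries. Controls lay far below, and the other 2 groups overlapped. The experimental mean of 238.3 ± 5.88 FPKM was 3.49 times the control mean of 68.3 ± 4.11, and the intervention mean of 245.8 ± 3.88 was 3.60 times it. Its copies were lower in level, with Gstp2 at 25.5 ± 5.005 FPKM in the experimental, 27.4 ± 4.90 in the intervention and 8.58 ± 1.505 in the control group, and the pseudogene Gstp-ps at 17.8 ± 0.68, 17.7 ± 1.72 and 7.18 ± 0.69 FPKM. With the 3 added into 1 entry, the differences were 1.73 for experimental against control and 1.78 for intervention against control on the log2 scale (limma adjusted p = 5.06e-09 and 5.16e-09).

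Gsto1, whose omega class enzyme reduces dehydroascorbate and arsenicals, was at 68.66, 77.33 and 70.35 FPKM in controls, 114.33, 114.86 and 107.00 in experimental and 105.83, 112.63 and 107.82 in intervention libraries. Experimental and intervention libraries overlapped, and both lay above the controls. The means were 112.1 ± 4.39, 108.8 ± 3.50 and 72.1 ± 4.60 FPKM in experimental, intervention and control libraries.

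Relative to controls, the means of the membrane genes also went opposite ways, while both were higher in intervention than in experimental libraries. Mgst1, a microsomal and mitochondrial transferase and peroxidase, was at 19.71, 20.69 and 18.18 FPKM in controls, 21.28, 25.21 and 21.38 in experimental and 37.23, 27.10 and 33.54 in intervention libraries. Mgst3, a microsomal enzyme with peroxidase activity, was at 26.58, 25.09 and 24.42 FPKM in controls, 14.01, 16.62 and 15.96 in experimental and 20.82, 17.43 and 17.26 in intervention libraries. No groups of either gene overlapped. Intervention libraries were highest for Mgst1 and lay between the others for Mgst3. The Mgst1 means were 19.5 ± 1.27, 22.6 ± 2.24 and 32.6 ± 5.13 FPKM and the Mgst3 means 25.4 ± 1.11, 15.5 ± 1.36 and 18.5 ± 2.01 FPKM in control, experimental and intervention libraries.

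FPKM is per length, so levels can be ordered between genes. In controls, Gsto1 at 72.1 and Gstp1 at 68.3 FPKM were highest and their libraries overlapped. Gstm1 followed at 57.5, then Gstm2 at 30.3, Gsta4 at 27.5, Mgst3 at 25.4 and Mgst1 at 19.5. The Gstm2 and Gsta4 libraries overlapped, as did those of Gsta4 and Mgst3. In experimental libraries Gstp1 at 238.3 FPKM came first and Gsta4 at 219.9 followed. They did not overlap, but the lowest Gstp1 library was at 232.74 and the highest Gsta4 library at 231.86 FPKM. In intervention libraries Gsta4 at 265.9 and Gstp1 at 245.8 FPKM came first and their libraries overlapped. In both groups Gsto1, Gstm1, Mgst1, Gstm2, Mgst3, Gsta1, Gsta2 and Gsta3 followed in that order, each without overlap with its neighbour.

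The summed FPKM of the 10 genes was 300.8 ± 7.42 in controls, 709.7 ± 24.8 in experimental and 793.1 ± 33.2 in intervention libraries, with ranges of 294.3 to 308.9, 689.4 to 737.4 and 763.3 to 828.9. The 3 ranges did not overlap. Gsta4 held 9.16% of the sum in controls, 31.0% in experimental and 33.5% in intervention libraries. Gstp1 held 22.7%, 33.6% and 31.0% and Gsto1 24.0%, 15.8% and 13.7% in the same order. Gstm1 held 19.1%, 10.4% and 11.4% and Gstm2 10.1%, 2.87% and 3.19% in the same order. These shares were not tested.

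**Figure D2:**
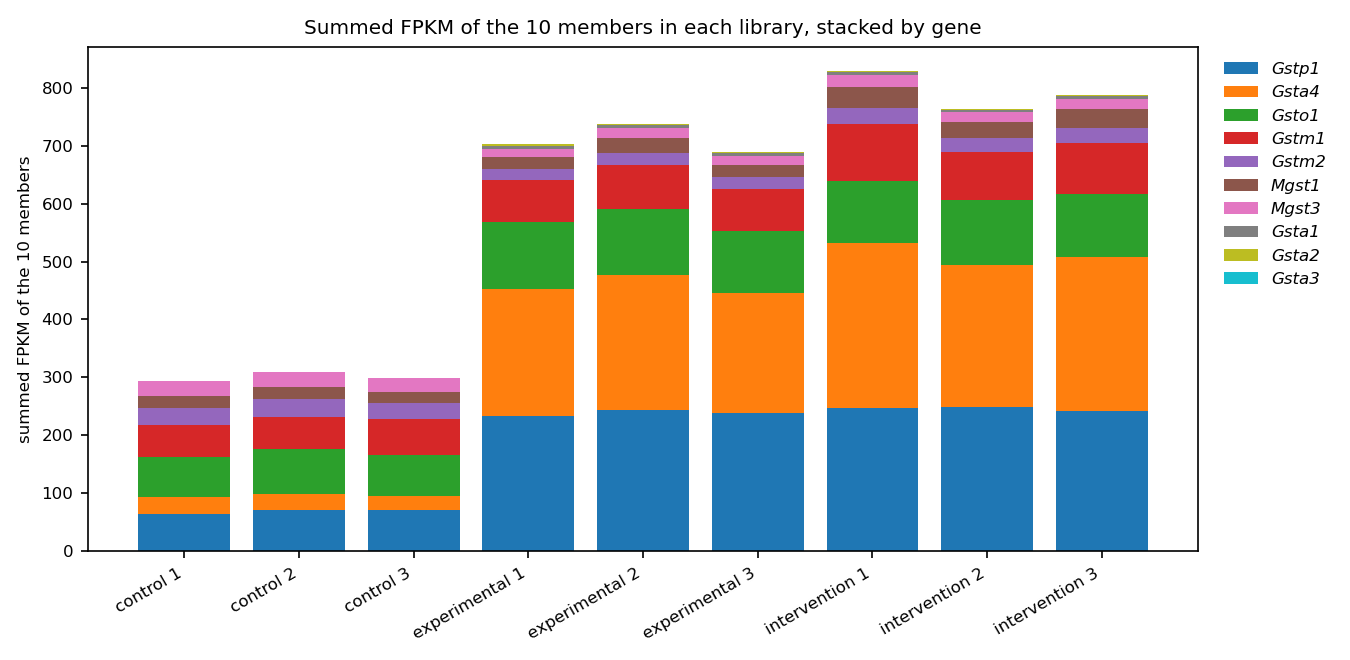
Summed FPKM of the 10 genes in each of the 9 libraries (vertical axis, linear, from 0), with each bar split by gene. The controls reach 294.3 to 308.9 FPKM, below every experimental (689.4 to 737.4) and intervention library (763.3 to 828.9), and Gsta4 and Gstp1 fill most of the difference.

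The first comparison set experimental against control libraries. Of the 9 tested members, 6 were higher and 2 lower at a limma adjusted p under 0.05 (Benjamini-Hochberg), and 1, Mgst1, was not called. Over all 11974 tested genes 74.0% were called, 23.5% higher and 50.5% lower, with a median difference of -0.207 on the log2(FPKM + 1) scale. The split of higher against lower genes depends on scaling: it was 2809 to 6047 here and 4335 to 4394 with median-ratio scaling, where the median was -0.003. Gsta1 and Gsta2 passed the filter on low values through the other 2 groups alone and had to differ, so their calls are no support. Of the 7 members above 1 FPKM in all libraries, 4 were higher and 2 lower.

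Gsta4 differed by 2.96 ± 0.08 (SE) on the log2 scale (limma adjusted p = 7.76e-09) and Gstp1 by 1.79 ± 0.05 (adjusted p = 8.73e-09). Gsto1 differed by 0.63 ± 0.06 (adjusted p = 3.80e-06) and Gstm1 by 0.35 ± 0.07 (adjusted p = 0.00142). Relative to the median of all genes, these 4 were 3.16, 1.997, 0.84 and 0.56 higher. Gsta1 differed by 2.53 ± 0.14 and Gsta2 by 1.53 ± 0.11, values that depend on the pseudocount because their controls were at or near 0. Mgst3 fell by 0.68 ± 0.08 (limma adjusted p = 3.58e-05) and Gstm2 by 0.55 ± 0.06 (adjusted p = 1.77e-05), or by 0.47 and 0.34 relative to the median. Mgst1 differed by 0.20 ± 0.11, with a 95% interval of -0.04 to 0.44 and a limma adjusted p of 0.121. It was called with median-ratio scaling at 0.43 (adjusted p = 0.0021) and with quantile normalization at 0.32 (0.0161), in a fit of the 2 groups alone (0.0479) and without intervention library 2 (0.0442), within a range of 0.0021 to 0.359 over 17 alternatives. In the 6 libraries with Alb, an alternative chosen after seeing the data in which the lone experimental library is assumed to vary like the others, the same 8 members were called.

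**Figure D3:**
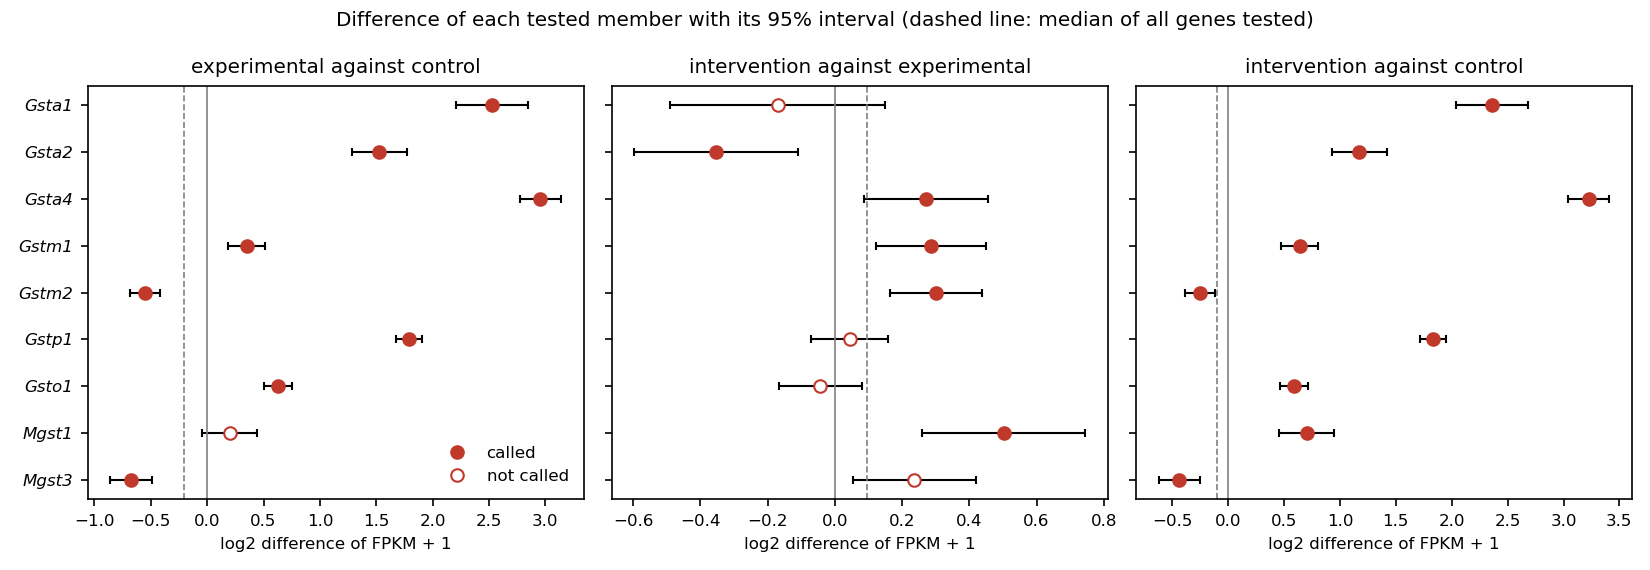
Difference of each of the 9 tested genes in log2(FPKM + 1) (horizontal axes, on a scale of their own for each comparison) with its 95% interval, for the 3 comparisons. Filled points were called at a limma adjusted p under 0.05, open points were not, and dashed lines mark the median of all genes tested (-0.207, 0.095 and -0.104). Gsta4 lies farthest to the right of zero in both panels against control, and Gstm2 and Mgst3 lie left of it there.

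The second comparison set intervention against experimental libraries. Of the 9 tested members, 4 were higher, 1 was lower and 4 were not called, where 19.5% of all tested genes were called, 15.9% higher and 3.60% lower. The split of all genes turned round with scaling, from 1906 higher and 431 lower here to 568 and 941 with median-ratio scaling and 451 and 587 with quantile normalization. Mgst1 was higher by 0.50 ± 0.11 (limma adjusted p = 0.0191) and Gstm2 by 0.30 ± 0.06 (adjusted p = 0.0167). Gstm1 was higher by 0.29 ± 0.07 (limma adjusted p = 0.0285) and Gsta4 by 0.27 ± 0.08 (adjusted p = 0.0457). Gsta2 fell by 0.35 ± 0.11 (limma adjusted p = 0.0476). The median of all genes was 0.095 higher in this comparison, and Gsta4 was 0.18 and Gstm1 0.19 above that median. Both of these calls were lost with median-ratio scaling, where Gsta4 was at 0.15 (limma adjusted p = 0.181) and Gstm1 at 0.17 (adjusted p = 0.123), and with quantile normalization (adjusted p = 0.0922 and 0.0588). Over 17 alternatives the adjusted p ranged from 0.0303 to 0.181 for Gsta4 and from 0.0161 to 0.123 for Gstm1. Gsto1 (-0.04, 95% interval -0.17 to 0.08), Gstp1 (0.04, -0.07 to 0.16, and -0.07 with median-ratio scaling), Gsta1 (-0.17, -0.49 to 0.15) and Mgst3 (0.24, 0.05 to 0.42, limma adjusted p = 0.0675) were not called.

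These 5 calls were close to the threshold. The Gsta2 call was lost in 13 of 16 alternatives (limma adjusted p from 0.0166 to 0.167), among them a pseudocount of 0.1 (adjusted p = 0.131), scaling to TPM (0.0714) and leaving out any 1 of the control libraries. None of the 5 calls held without experimental library 1, experimental library 3 or intervention library 1. In these fits 5, 6 and 5 members had an unadjusted limma p under 0.05, as did 3355, 3375 and 3161 of all 11974 tested genes. Without intervention library 3, 1 member and 939 of all tested genes were called, and without control library 2, 3 members and 2446 genes. In the 6 libraries with Alb, the lone experimental library is too few to judge the calls. The differences there were 0.48 for Mgst1, 0.26 for Gstm2, 0.24 for Gstm1, 0.30 for Gsta4 and -0.39 for Gsta2, and Gsto1 was at 0.04.

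The last comparison set intervention against control libraries and shares its libraries with the other 2. All 9 tested members were called, 7 higher and 2 lower, where 65.3% of all tested genes were called, 24.1% higher and 41.1% lower, with a median of -0.104. The 7 higher include Gsta1 and Gsta2, which had to differ from controls, and of the 7 members above 1 FPKM in all libraries 5 were higher and 2 lower. Over all genes 2890 were higher and 4926 lower here, against 3865 and 3932 with median-ratio scaling and 3798 and 3913 with quantile normalization. Gsta4 differed by 3.23 ± 0.08 (limma adjusted p = 5.39e-09) and Gstp1 by 1.83 ± 0.05 (adjusted p = 9.75e-09). Mgst1 was higher by 0.70 ± 0.11 (limma adjusted p = 2.76e-04), Gstm1 by 0.64 ± 0.07 (3.64e-05) and Gsto1 by 0.59 ± 0.06 (1.05e-05). Mgst3 fell by 0.44 ± 0.08 (limma adjusted p = 9.54e-04), and Gstm2 fell by 0.25 ± 0.06 (adjusted p = 0.00459). The Gstm2 call was lost with median-ratio scaling, at -0.13 (adjusted p = 0.0563, within a range of 7.00e-04 to 0.0563 over 17 alternatives). Gsta1 and Gsta2, at 0 or near it in controls, differed by 2.36 ± 0.14 and 1.17 ± 0.11.

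The other transferase and MAPEG genes were mostly low in level. Of 22 listed, 19 had an entry and 9 were tested, while Gsta5, Gsta13 and Gstt4 were not analysed here. The 10 not tested reached at most 1.12 FPKM. In experimental against control libraries 2 were called higher and 5 lower by limma, with a median of -0.46. Over all tested genes the shares higher and lower were 23.5% and 50.5% there. They were 15.9% and 3.60% in intervention against experimental and 24.1% and 41.1% in intervention against control libraries. Gstz1, an enzyme of tyrosine breakdown, was at 1.64 ± 0.03 against 4.34 ± 0.16 FPKM and differed by -1.02. Gstt3, a theta class gene, was at 0.66 ± 0.15 against 2.65 ± 0.45 FPKM, but it passed the filter on low values only through the controls, so its lower calls against them are no support. Gstp2 rose by 1.46, and Gstm5 was at 7.91 ± 0.65 against 13.5 ± 0.94 FPKM (limma adjusted p = 3.20e-05). In intervention against experimental libraries 3 were higher (Mgst2 0.44, Gstm5 0.33, Gstz1 0.25) and none lower, of which 1 and 0 were called under median-ratio scaling and quantile normalization. Mgst2 passed the filter only through the intervention libraries, so its higher calls there are no support. In intervention against control libraries 3 were higher and 5 lower, or 4 with either of those scalings, led by Gstz1 (-0.77), Gstp2 (1.57), Gsto2 (-0.94) and Gstt3 (-0.92).

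**Figure D4:**
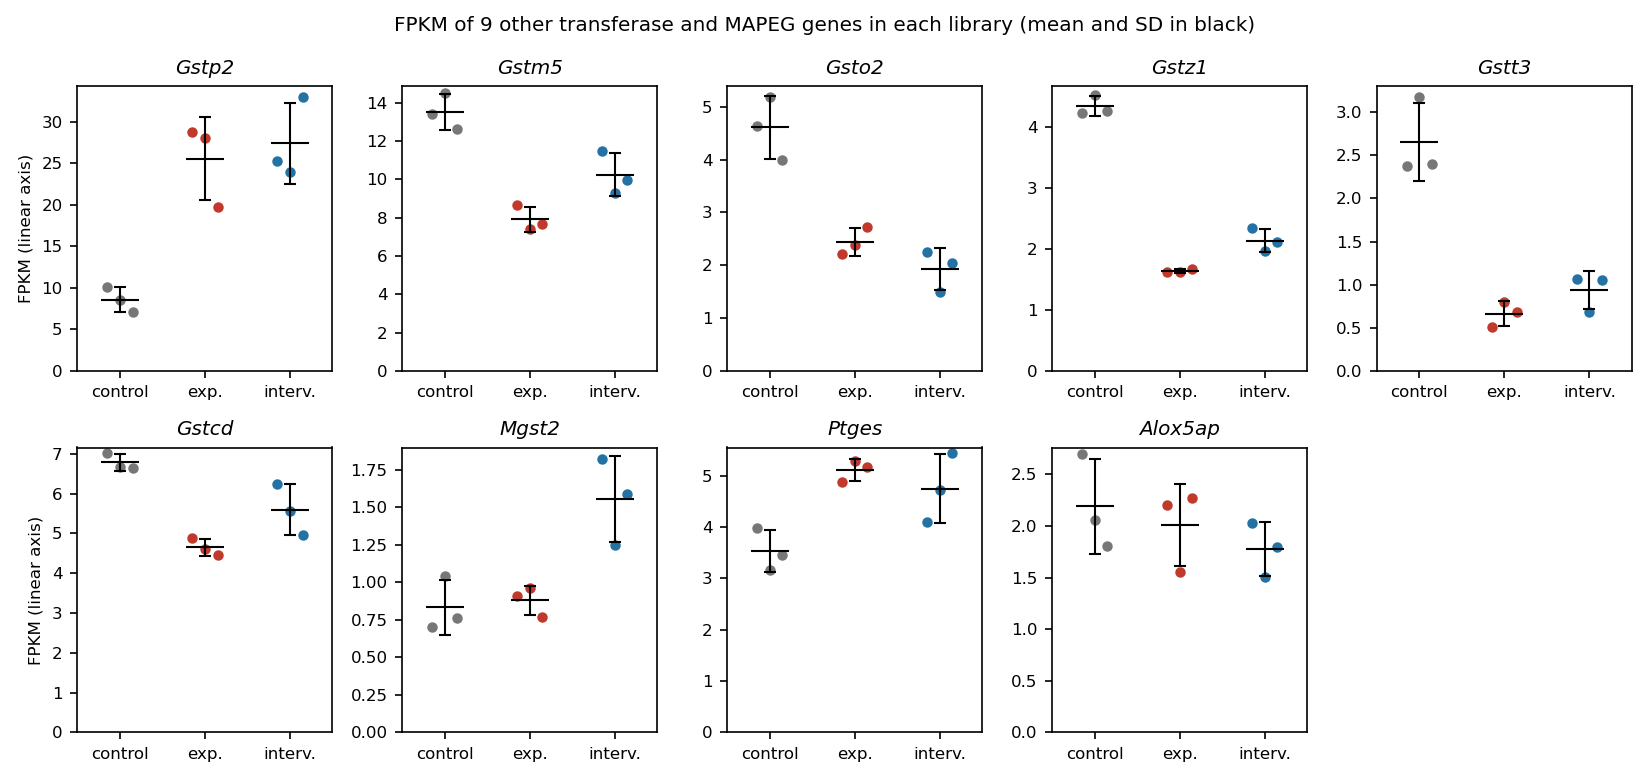
FPKM of the 9 tested other transferase and MAPEG genes (vertical axes, linear, from 0, on a scale of their own for each gene) in the 3 libraries of each group, with the mean and SD in black. Gstz1 and Gstt3 are highest in controls, and Gstp2 is lowest there.

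Glutathione supply genes were tested as 8 of 10. Against controls, 5 were higher and 2 lower in experimental libraries (median 1.18, against -0.207 over all genes), and 6 were higher and none lower in intervention libraries (median 1.09). Over all tested genes 23.5% were higher and 50.5% lower in the experimental and 24.1% and 41.1% in the intervention libraries. With median-ratio scaling or quantile normalization 1 more, Gss, was higher in each of these comparisons. Gclm, the modifier subunit of glutamate-cysteine ligase, was at 65.05 ± 1.08 FPKM in the experimental, 58.4 ± 2.12 in the intervention and 5.01 ± 0.36 in the control group. Gclc, its catalytic subunit, was at 68.7 ± 4.45, 58.3 ± 2.23 and 12.2 ± 0.35 FPKM. Slc7a11, the cystine importer, was at 1.70 ± 0.05 FPKM in the experimental, 27.7 ± 2.02 in the intervention and 22.5 ± 3.22 in the control group. Slc3a2, its partner chain, was at 415.1 ± 30.3, 273.2 ± 48.3 and 47.3 ± 1.91 FPKM in the same order. In intervention against experimental libraries 1 was higher, Slc7a11 (3.41, limma adjusted p = 8.37e-08), and 3 were lower, Slc3a2, Gclc and Chac1. Over all tested genes 15.9% were higher and 3.60% lower there. With median-ratio scaling Gclm was called lower as well (-0.27, limma adjusted p = 0.0245).

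Genes of conjugate export and mercapturate formation were tested as 9 of 20, of which 18 had an entry. Against controls, 3 were higher and 5 lower in both the experimental (median -0.32) and the intervention libraries (median -0.24). Over all tested genes 23.5% were higher and 50.5% lower in the experimental and 24.1% and 41.1% in the intervention libraries. With quantile normalization the counts were 3 and 3 in the experimental libraries, where Dpep1 and Acy1 were not called. With median-ratio scaling they were 4 and 4, where Abcc5 was called higher (0.18, limma adjusted p = 0.0284) and Dpep1 was not called. In the intervention libraries they were 3 and 4 with either scaling, where Acy1 was not called. The conjugate pump Abcc1 was at 28.7 ± 0.83, 26.5 ± 1.85 and 5.91 ± 0.46 FPKM and Abcc4, another pump, at 13.3 ± 0.43, 11.3 ± 1.14 and 3.49 ± 0.43 FPKM in experimental, intervention and control libraries. Abcg2, a further pump, was at 1.15 ± 0.11, 1.45 ± 0.33 and 3.65 ± 0.25 FPKM. In intervention against experimental libraries 1 was called, Dpep1, a dipeptidase of mercapturate formation, which fell by 0.35 (limma adjusted p = 0.0291). Over all tested genes 15.9% were higher and 3.60% lower there. With median-ratio scaling Abcc4 was called lower as well (-0.33, limma adjusted p = 0.0470).

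The regulators are given as values. Nfe2l2, which encodes NRF2, was at 41.8 ± 1.015 FPKM in the experimental, 35.8 ± 1.84 in the intervention and 25.6 ± 0.70 in the control group. Keap1 was at 16.5 ± 1.67, 19.6 ± 0.97 and 17.5 ± 0.37 FPKM, Bach1 at 16.4 ± 1.21, 14.0 ± 1.38 and 8.10 ± 0.51 FPKM, and Mafg at 50.2 ± 2.85, 48.5 ± 1.46 and 25.5 ± 1.79 FPKM.

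The genes whose centred log2 profile over the 9 libraries was nearest to each member were taken from 6673 candidates by root mean square distance. Gsta4 was nearest to Nqo1 (0.113), a quinone reductase at 119.3, 137.2 and 15.9 FPKM in experimental, intervention and control libraries, and to Gclm (0.248). For Gstp1 the nearest were Slpi (0.070), at 187.2, 203.7 and 57.5 FPKM, and Steap1 (0.10), for Gsto1 Prpf4 (0.037) and Eif4a1 (0.043), and for Gstm1 BC028528 (0.076) and Psmc1 (0.079). For Gstm2 they were Ensa (0.032) and Chmp5 (0.036), for Mgst3 Clk2 (0.044) and Tcaf1 (0.050), and for Mgst1 Mettl7a1 (0.096) and Pir (0.107). Gsta1 was nearest to Mllt11 (0.194) and Pgd (0.195), and Gsta2 to Slc7a1 (0.071) and Ccdc117 (0.076), which says nothing of shared function or control. The distances come from 9 libraries in 3 groups, and the library values share those groups. The root mean square of a member's own centred profile was 1.465 for Gsta4, 1.167 for Gsta1, 0.855 for Gstp1 and 0.661 for Gsta2. It was 0.323 for Mgst1, 0.295 for Mgst3, 0.293 for Gsto1, 0.274 for Gstm1 and 0.234 for Gstm2. A distance is to be read against that value, so the distances do not rank closeness between members.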

How the data were processed

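RNA of HT22 cells was measured in 9 libraries, 3 per group, grouped by the sample titles. A Qiagen RNeasy kit gave the RNA and a SMARTer mRNA-Seq kit the libraries, per the labels' protocols, and an Illumina NovaSeq the reads, per the design text. What the authors deposited is a single FPKM table of 29756 entries. The build is mm10, per the submitters' processing notes. The aligner, counter, annotation and strand setting were not given in the sources used here. Whole reads were not recovered: among genes shorter than 200 nt, 1344 (16.3%) of 8245 nonzero values fell below the worth of 1 read at a depth of 200 M, so no count test was run.

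Values were transformed to log2(FPKM + 1), a scale that understates changes of low genes. Entries with FPKM of at least 1 in at least 3 of 9 libraries (11974) were fitted together with limma 3.58.1 in R 4.3.3 (trend, no covariate), and calls used a 2-sided Benjamini-Hochberg adjusted p under 0.05 over all tested entries. For 118 entries with a repeated symbol, 61 were renamed. The code was tested on simulated data. Alternatives were another pseudocount (0.1), no filter or a mean FPKM of at least 5, median-ratio, TPM and quantile scaling, fits of 2 groups, a replicate block, leaving out each library, and 2 chosen after seeing the data. All members were named. From each other list up to 4 called genes with the smallest adjusted p per comparison were named, with the regulators and the 2 genes nearest each member (mean FPKM of at least 5, no predicted or ribosomal protein gene). 1 gene that this rule names is not reported here. The members and lists were chosen with earlier results of these data known. Sequences came from GENCODE M21 and RefSeq, read with Python 3.11.15 and Biopython 1.88.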

Additional observations from a re-analysis of the deposited data

How the results depend on the processing

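Precision rests on 3 libraries per group, since depth is unknown. Against controls, the calls of Gsta4, Gstm1, Gstm2, Gstp1, Gsto1 and Mgst3 in experimental libraries and of Gsta4, Gstm1, Gstp1, Gsto1, Mgst1 and Mgst3 in intervention libraries held under every alternative tried. Gsta1 and Gsta2 were not tested at a mean FPKM of at least 5, and leaving out 1 library gave 8 to 9 and 9 to 9 member calls. Over all genes the leave-one-out counts were 8314 to 8841, 1 to 2571 and 7169 to 7785 in the order of the report. A mean FPKM of at least 5 left 7361 genes to test and 5702 and 5129 calls against controls. In intervention against experimental libraries, 2337 genes and 5 members were called, and leaving out 1 library gave 0 to 5 members. The counts of genes and members were 358 and 0 with no filter. There 5598 of 29410 genes and 6 members had an unadjusted limma p under 0.05. The counts were 1509 and 3 with median-ratio scaling, 1038 and 3 with quantile normalization, 1268 and 2 with the replicate block and 1949 and 3 with scaling to TPM. The libraries holding Alb alone, chosen after seeing the data, have a lone experimental library, too few to judge the calls. The 5 members kept the sign of their difference there. Experimental libraries 1 and 3 and intervention libraries 1 and 3 left 1, 4, 6 and 939 genes when left out. The causes were not tested. Gstp1 changed sign to -0.073 with median-ratio scaling (adjusted p = 0.368) and Gsto1 to 0.042 with the libraries holding Alb (adjusted p = 0.841), neither called. Replicate numbers showed no sign of pairing: same-number correlations of deviations were -0.18 to 0.11 and different-number ones -0.14 to 0.149. Of the 9 libraries, 0 correlated best with their own number in both other groups. With 3 libraries per group, this cannot tell whether same-number libraries were handled together. The replicate block lost the Gsta2, Gsta4 and Gstm1 calls in that comparison and no other member call.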
